A study of Mus musculus with 27 samples.

Results

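The livers of male C57BL/6J mice were examined for 10 genes of bile acid synthesis and transport, namely Cyp7a1, Cyp7b1, Cyp8b1, Cyp27a1, Baat, Slc27a5, Nr0b2, Nr1h4, Slc10a1 and Abcb11. Each gene was represented by the probe set of highest mean among those annotated to it, and for each of the 10 there was 1 such probe set. They are 10 of 18820 genes with a value, and 10 of 13603 genes that exceeded the intensity minimum of 20 on 5 or more arrays. Each liver was hybridised to its own Affymetrix Mouse Gene 1.1 ST array. The intermittent group (INT, 7 mice) alternated 1 week of 40% energy restriction with 1 week of the moderate-fat diet ad libitum, and was sacrificed in an ad libitum week. The calorie-restricted group (CR, 6 mice) was given daily portions set at 30% less energy than the mean intake of the controls. These portions were enriched in vitamins and minerals. The moderate-fat group (MF, 7 mice) had ad libitum access to a diet with 25% of its energy as fat, and the control group (C, 7 mice) to the AIN-93W diet. All diets began at 9 weeks of age and ended at 12 months. All 27 mice shared a mock treatment, in which 4 h of fasting, a gavage of 0.5% carboxymethyl cellulose and another 6 h of fasting preceded sacrifice.

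Bile acids are made from cholesterol in hepatocytes. The classic pathway starts with 7-alpha-hydroxylation by Cyp7a1, while the alternative pathway starts with side-chain oxidation by Cyp27a1 and continues with 7-alpha-hydroxylation by Cyp7b1. Cyp8b1 adds the hydroxyl group that makes cholic acid. Slc27a5 and Baat then link the bile acids to coenzyme A and to taurine. Slc10a1 takes conjugated bile acids up from the portal blood, and Abcb11 exports them into the bile. Nr1h4 encodes FXR, the nuclear receptor that binds bile acids. Its target Nr0b2 (SHP) is a repressor of Cyp7a1 and Cyp8b1, and Abcb11 is another FXR target.

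The promoters of Cyp8b1, Nr0b2 and Abcb11 are shown because matches to the motifs searched were found in them. The sequences are those of RefSeq on the GRCm38.p6 build, from 250 bases before to 50 bases after the annotated start, written on the strand of the gene. Capitals mark matches to the motifs searched. Cyp8b1 lies on the minus strand at chr9:121916256-121916555, Nr0b2 on the plus strand at chr4:133553126-133553425 and Abcb11 on the minus strand at chr2:69342567-69342866.
Cyp8b1: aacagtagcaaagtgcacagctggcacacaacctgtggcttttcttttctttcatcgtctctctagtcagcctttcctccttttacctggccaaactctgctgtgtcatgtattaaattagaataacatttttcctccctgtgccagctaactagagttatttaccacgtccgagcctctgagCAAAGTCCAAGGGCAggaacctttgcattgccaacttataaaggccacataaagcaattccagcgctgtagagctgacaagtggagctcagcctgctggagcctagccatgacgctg
Nr0b2: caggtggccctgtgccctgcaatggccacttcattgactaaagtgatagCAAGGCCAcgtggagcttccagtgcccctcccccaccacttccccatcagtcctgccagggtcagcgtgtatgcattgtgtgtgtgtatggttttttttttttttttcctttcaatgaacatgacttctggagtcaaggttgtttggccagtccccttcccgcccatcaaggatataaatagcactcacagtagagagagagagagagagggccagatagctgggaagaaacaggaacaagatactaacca
Abcb11: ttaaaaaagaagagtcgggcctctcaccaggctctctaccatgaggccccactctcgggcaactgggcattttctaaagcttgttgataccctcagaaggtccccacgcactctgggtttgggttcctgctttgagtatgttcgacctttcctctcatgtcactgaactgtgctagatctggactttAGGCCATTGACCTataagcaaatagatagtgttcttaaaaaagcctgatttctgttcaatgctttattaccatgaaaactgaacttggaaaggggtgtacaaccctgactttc

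Both strands were searched for 3 motifs. The inverted repeat that FXR recognises, AGGTCANTGACCT with at most 1 differing letter, was found in 0.0822% of 32851 mouse promoters of this length. Among the bile acid genes it was found in the Abcb11 promoter, as AGGCCATTGACCT from position -63 with 1 differing letter. The NR5A2 motif CAAGGNCA was present in 6.71% of all promoters. It occurred as CAAGGGCA from position -60 of Cyp8b1 and as CAAGGCCA from position -201 of Nr0b2. The HNF4A motif CAAAGTCCA, in 0.475% of all promoters, occurred from position -67 of Cyp8b1 and overlaps the NR5A2 match there. These are matches of letters and no measured sites. The promoter table held 6 of the 10 genes, with no match in Cyp27a1, Nr1h4 and Slc10a1. Cyp7a1, Cyp7b1, Baat and Slc27a5 were not looked up elsewhere.

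Among Cyp7a1, Cyp7b1, Cyp8b1 and Cyp27a1, Cyp7b1 was the one that set CR-fed mice apart from all others. This was not particular to Cyp7b1 in the wider pathway. The enzymes Cyp39a1, Hsd3b7, Akr1d1 and Scp2, described below, also had CR ranges separate from those of every other diet. A log2 fold change is given as the first diet minus the second, with the standard error (SE) and the adjusted p of limma over 13603 genes, and a gene was called at an adjusted p under 0.05. The lowest, median and highest log2 intensity of Cyp7b1 were 10.80, 11.40 and 11.70 in INT-fed mice and 8.62, 8.93 and 9.10 in CR-fed mice. MF-fed mice ranged from 9.21 to 11.37 around a median of 10.19, and C-fed mice from 9.96 to 11.91 around 10.67. All 6 CR-fed mice lay below every mouse of the other diets, whereas the ranges of INT-, MF- and C-fed mice overlapped. INT-fed mice had 5.14-fold more Cyp7b1 RNA than CR-fed mice (log2 fold change 2.36, SE 0.29, adjusted p = 1.6e-06). In CR-fed mice it was 2.71-fold lower than under MF (log2 fold change -1.44, SE 0.29, adjusted p = 0.000745) and 3.34-fold lower than under C (log2 fold change -1.74, SE 0.29, adjusted p = 0.000104). In these bulk samples, fewer cells of a type and less RNA per cell cannot be told apart. INT-fed mice averaged 0.92 above MF-fed mice (adjusted p = 0.341) and 0.62 above C-fed mice (adjusted p = 0.709), and neither difference was called.

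The arrays of replicates 1 to 4 (16 arrays) and of replicates 5 to 7 (11 arrays, with 2 CR-fed mice) were also taken as 2 array sets, divided by replicate number. This division was noticed in the quartiles of the arrays, which are not shown here, and the labels do not name the sets as batches. Within replicates 1 to 4, Cyp7b1 differed by 2.25 between INT and CR, by -1.39 between CR and MF and by -1.83 between CR and C (adjusted p = 0.000676, 0.0103 and 0.00265). Within replicates 5 to 7 the same differences were 2.47, -1.45 and -1.57 (adjusted p = 0.0349, 0.196 and 0.133). The size of the difference was therefore similar in both sets, and the calls against MF and C were lost in the smaller one.

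Cyp7a1, the rate-limiting enzyme of the classic pathway, showed another order of the diets. INT-fed mice had values of 10.92, 11.16 and 12.03 (lowest, median and highest), and CR-fed mice 10.62, 11.02 and 11.69. MF-fed mice covered the widest range, with 8.98, 10.44 and 11.34, and C-fed mice had 10.10, 10.54 and 11.15. The ranges of all diets overlapped. Of the 7 MF-fed mice, 5 lay below every INT-fed mouse and 5 below every CR-fed mouse. Means were 11.34 (SD 0.47) in INT-, 11.10 (SD 0.39) in CR-, 10.27 (SD 0.85) in MF- and 10.62 (SD 0.41) in C-fed mice. One difference was called, at 0.82 between CR and MF (SE 0.29, adjusted p = 0.0456). The larger difference between INT and MF, 1.07 (SE 0.28), had an unadjusted p of 0.000676 and an adjusted p of 0.324, in a comparison in which 1479 genes had an unadjusted p under 0.05 and none was called. It passed when MF replicate 6 was omitted (1.25, adjusted p = 0.0427). INT exceeded C by 0.72 (SE 0.28, adjusted p = 0.646). Mean levels next to each other in this order (INT, CR, C and MF) did not differ beyond their spread, at 0.25 for INT against CR, 0.47 for CR against C and -0.35 for MF against C (adjusted p = 0.629, 0.296 and 1.0).

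The call of Cyp7a1 between CR and MF lies close to the threshold. It did not survive the omission of CR replicate 1, 3, 4, 5 or 6, of MF replicate 1, 2, 3 or 4, of INT replicate 2 or 7, or of C replicate 7, with log2 fold changes between 0.61 and 0.87 and adjusted p between 0.0503 and 0.117. Within replicates 1 to 4 the difference was 1.35 (adjusted p = 0.0104), and within replicates 5 to 7 it was 0.14 (adjusted p = 0.897). For INT against MF these values were 1.58 (adjusted p = 0.193) and 0.40 (adjusted p = 0.96). In MF-fed mice, Cyp7a1 stood at 10.44, 10.10, 8.98 and 9.40 in replicates 1 to 4 and at 10.60, 11.34 and 11.03 in replicates 5 to 7. These MF values did not overlap between the sets.

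Cyp8b1, the 12-alpha-hydroxylase, and Cyp27a1 were called in no comparison. Cyp8b1 had values of 9.97, 10.73 and 11.23 (lowest, median and highest) in INT-, 9.47, 10.19 and 11.35 in CR-, 9.86, 10.43 and 11.02 in MF- and 10.28, 10.61 and 10.84 in C-fed mice. CR-fed mice held both the lowest and the highest value of all 27 mice, and the other diets lay between them. INT exceeded CR by 0.51 (SE 0.26, adjusted p = 0.193), and without CR replicate 1 the difference was 0.73 and called (adjusted p = 0.0398). Cyp27a1 varied little, between 11.61 and 12.08 over all mice. Its largest difference was 0.12 between INT and MF (SE 0.06, adjusted p = 0.481), with a 95% interval from -0.01 to 0.24.

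Baat and Slc27a5, the genes of conjugation, were called in no comparison either. Baat had medians of 9.58 in INT-, 9.31 in CR-, 9.34 in MF- and 9.30 in C-fed mice and ranged from 9.21 to 9.76 over all mice. Slc27a5 had medians of 11.70 in INT-, 11.77 in CR-, 11.67 in MF- and 11.67 in C-fed mice and ranged from 11.47 to 11.81. Groups overlapped in every comparison of both genes. For Baat, INT exceeded CR by 0.18 (SE 0.08, adjusted p = 0.126). For Slc27a5, CR exceeded MF by 0.13 (SE 0.06, adjusted p = 0.115), and without CR replicate 2 the difference was 0.17 and called (adjusted p = 0.0422).

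**Figure D1:**
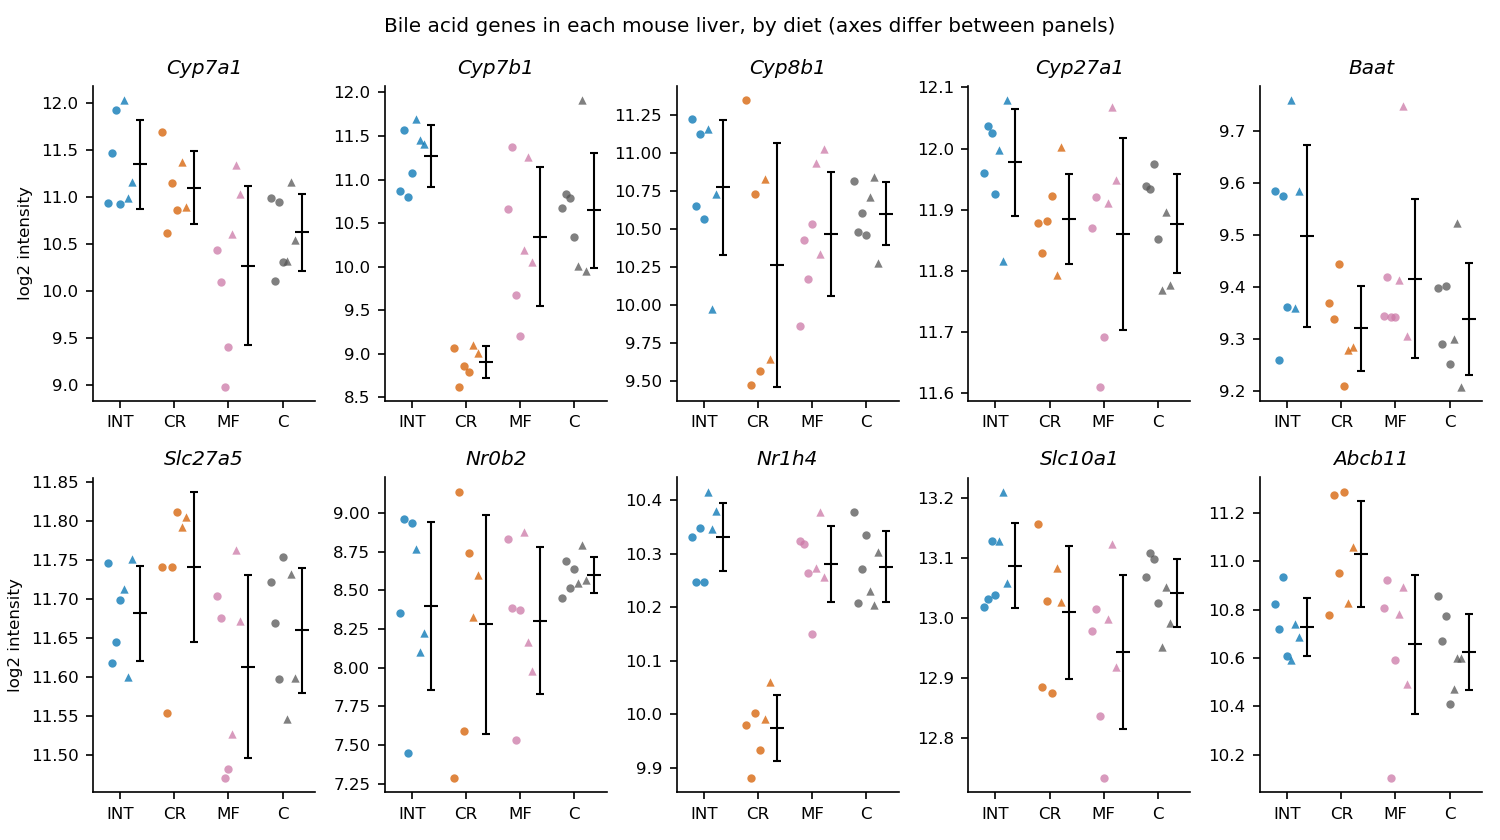
Log2 intensity (vertical axis, a scale per panel) of the 10 bile acid genes in each liver, for INT-, CR-, MF- and C-fed mice from left to right. Circles are replicates 1 to 4, triangles replicates 5 to 7, and the bar is the mean with 1 SD. CR-fed mice lie below all others for Cyp7b1 (8.62 to 9.10) and Nr1h4 (9.88 to 10.06), and spread from 9.47 to 11.35 for Cyp8b1.

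Of the regulators, Nr1h4 (FXR) was lower in CR-fed mice by a small and uniform amount, and its target Nr0b2 was not called. Nr1h4 had values of 10.25, 10.35 and 10.42 (lowest, median and highest) in INT- and of 9.88, 9.99 and 10.06 in CR-fed mice. MF-fed mice had 10.15, 10.27 and 10.38, and C-fed mice 10.20, 10.27 and 10.38. As for Cyp7b1, every CR-fed mouse lay below every other mouse, and the remaining diets overlapped. The share of all genes tested with such a separate CR range was not counted. Genes of the wider lists such as Ppargc1a and Slco1a4 also had one, above the other diets. INT-fed mice had 1.28-fold more Nr1h4 RNA than CR-fed mice (log2 fold change 0.36, SE 0.05, adjusted p = 3.82e-06). In CR-fed mice it was 1.24-fold lower than under MF (-0.31, SE 0.05, adjusted p = 2.6e-05) and 1.23-fold lower than under C (-0.30, SE 0.05, adjusted p = 3.59e-05). Within replicates 1 to 4 the 3 differences were 0.34, -0.32 and -0.35, and within replicates 5 to 7 they were 0.35, -0.28 and -0.22. In the smaller set the adjusted p were 0.0544, 0.129 and 0.192, so that all 3 calls were lost there.

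Nr0b2 had means of 8.40 (SD 0.54) in INT-, 8.28 (SD 0.71) in CR-, 8.31 (SD 0.47) in MF- and 8.60 (SD 0.12) in C-fed mice. Its differences between diets lay between -0.32 and 0.12, with adjusted p from 0.439 to 1.0. The lowest and highest values were 7.45 and 8.96 in INT-, 7.29 and 9.14 in CR-, 7.53 and 8.88 in MF-, and 8.45 and 8.79 in C-fed mice. The 7 C-fed mice thus covered a narrower range (0.34) than the INT-fed (1.52), CR-fed (1.85) or MF-fed mice (1.34). The difference in spread was not tested.

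Of the transporters, the export pump Abcb11 was higher in CR-fed mice and the uptake carrier Slc10a1 was not called. Abcb11 had values of 10.59, 10.72 and 10.93 (lowest, median and highest) in INT- and of 10.78, 11.01 and 11.29 in CR-fed mice. MF-fed mice had 10.10, 10.78 and 10.92, and C-fed mice 10.41, 10.60 and 10.86. The groups overlapped, but 4 of the 6 CR-fed mice lay above every INT-fed mouse, 4 above every MF-fed mouse and 4 above every C-fed mouse. CR-fed mice had 1.3-fold more Abcb11 RNA than MF-fed mice (log2 fold change 0.37, SE 0.11, adjusted p = 0.0161) and 1.32-fold more than C-fed mice (0.40, SE 0.11, adjusted p = 0.0105). Between INT and CR it stood at -0.30 (SE 0.11, adjusted p = 0.0653). Omitting CR replicate 2 (0.33, adjusted p = 0.0507) or CR replicate 4 (0.32, adjusted p = 0.0521) ended the call against MF. A call between INT and CR was gained without CR replicate 1, CR replicate 5, INT replicate 3 or MF replicate 3, with adjusted p between 0.0247 and 0.0471. Within replicates 1 to 4, Abcb11 differed by 0.47 between CR and MF and by 0.40 between CR and C (adjusted p = 0.0621 and 0.142). Within replicates 5 to 7 these values were 0.22 and 0.39 (adjusted p = 0.449 and 0.131). No call for Abcb11 was made within either set alone. With a one-way test and Tukey's post-test, its p adjusted over all genes, both calls were lost (adjusted p = 0.114 against MF and 0.0816 against C). The methods name the one-way test without that adjustment. The call against MF was also lost with only those diets in the fit (limma adjusted p = 0.0641).

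Slc10a1 (NTCP) ranged from 12.73 to 13.21 over all mice. Its medians were 13.06 in INT-, 13.03 in CR-, 12.98 in MF- and 13.05 in C-fed mice. The largest difference was 0.14 between INT and MF (SE 0.06, adjusted p = 0.388), and the groups overlapped in every comparison.

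Counted over the 10 genes, 2 were called between INT and CR, both higher in INT-fed mice (Cyp7b1 and Nr1h4). Of all genes tested, 15.0% were called in this comparison, 8.37% higher and 6.62% lower in INT. Between CR and MF, 4 of 10 were called, with Cyp7a1 and Abcb11 higher and Cyp7b1 and Nr1h4 lower in CR, against 19.8% of all genes (8.57% higher and 11.2% lower). Between CR and C, 3 of 10 were called, with Abcb11 higher and Cyp7b1 and Nr1h4 lower in CR, against 17.5% of all genes (8.46% higher and 9.05% lower). These shares are of the same order as those of all genes, given that 1 gene of 10 weighs 10%. The 3 comparisons share the CR-fed mice, so that their counts are not independent. None of the 10 was called by limma between INT and MF (0.0% of all genes called), INT and C (0.0%) or MF and C (0.0%). Nor did the one-way test with Tukey's post-test call any of them there. Its p were adjusted over all genes, an adjustment that the methods do not name. At an unadjusted limma p under 0.05 there were 3, 3 and 0 of the 10 genes in these comparisons, and 10.9%, 6.78% and 3.41% of all genes. All 10 genes had a mean above MF in INT-fed mice, with a median difference of 0.11 against -0.003 over all genes. Several of these genes were correlated between mice (r = 0.67 for Cyp7a1 with Cyp27a1, diet means removed), so that these are not 10 separate observations. The share of all genes with a mean above MF was not counted, and the shared direction was not tested.

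**Figure D2:**
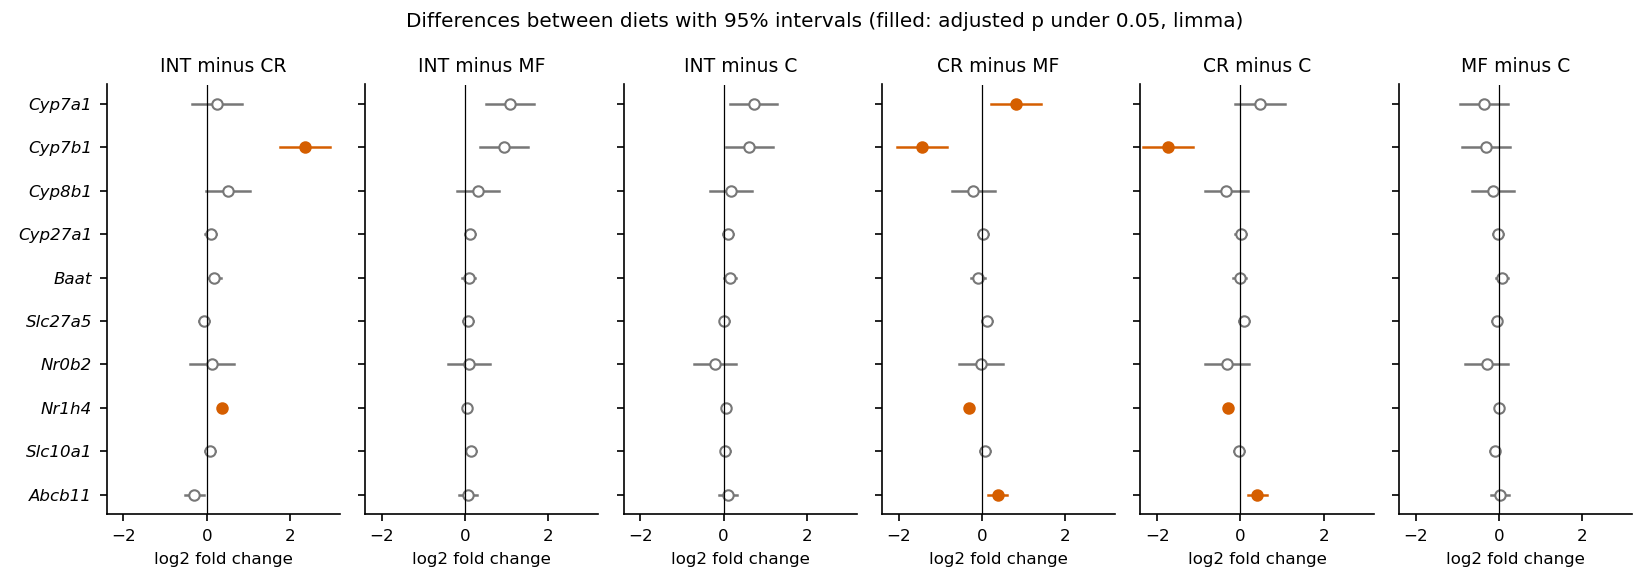
Log2 fold change (horizontal axis) of the 10 bile acid genes in the 6 comparisons of diets, first diet minus second, with 95% intervals. Filled points have a limma adjusted p under 0.05 over 13603 genes. The largest differences are those of Cyp7b1, at 2.36 for INT against CR, -1.44 for CR against MF and -1.74 for CR against C.

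The genes of this pathway differed in how much they varied between mice of 1 diet. The SD within diets was 0.57 for Cyp7a1, 0.57 for Cyp7b1, 0.50 for Cyp8b1 and 0.50 for Nr0b2 on the log2 scale, where the median gene had 0.16. Each of these 4 genes varied more than at least 98.5% of the genes tested. At the other end, Nr1h4 (0.07) varied more than 1.28% of genes, Slc27a5 (0.09) more than 6.7% and Slc10a1 (0.10) more than 8.36%. Cyp27a1, Baat and Abcb11 stood at 13.5%, 33.1% and 75.4%. The same mouse was often the extreme of several genes. MF replicate 3 had the lowest value of all 27 mice for 4 genes (Cyp7a1, Cyp27a1, Slc27a5 and Abcb11), and INT replicate 5 the highest for 3 (Cyp7a1, Baat and Nr1h4).

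Among the CR-fed mice, Cyp8b1 and Nr0b2 had the widest ranges of the 10 genes (1.88 and 1.85 on the log2 scale), followed by Cyp7a1 (1.07) and Abcb11 (0.51). In CR replicates 1 to 6, Nr0b2 stood at 7.29, 9.14, 7.59, 8.74, 8.33 and 8.60. Cyp8b1 stood at 11.35, 9.47, 10.73, 9.56, 10.83 and 9.64 in the same order. Replicates 1, 3 and 5 thus had less Nr0b2 and more Cyp8b1 than replicates 2, 4 and 6. Cyp7a1 stood at 11.69, 10.62, 11.14, 10.86, 11.37 and 10.89, again with the higher values in replicates 1, 3 and 5. Abcb11 stood at 10.78, 11.28, 10.95, 11.29, 10.83 and 11.06, with the higher values in replicates 2, 4 and 6. Slc10a1, with no motif match, stood at 13.157, 12.886, 13.028, 12.876, 13.084 and 13.026. It too had the higher values in replicates 1, 3 and 5, though replicates 3 and 6 were nearly equal. Cyp7b1, Cyp27a1, Baat, Slc27a5 and Nr1h4 did not divide the 6 mice in this way. The division was noticed in the data, and no test was made of it. Pearson's r of Nr0b2 with Cyp8b1 was -0.10 in INT-, -0.905 in CR-, 0.01 in MF- and 0.02 in C-fed mice (7, 6, 7 and 7 mice). That of Nr0b2 with Abcb11 was -0.81 in INT-, 0.82 in CR-, 0.76 in MF- and -0.43 in C-fed mice, so that its sign differed between diets. These values describe pairs chosen after they were seen, and the differences between diets were not tested. Replicates 5 and 6 belong to the second array set and the others to the first.

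Over all 27 mice, 5 pairs of genes were tested with the mean of each diet removed (2-sided permutation test, 100000 shuffles within diets, adjusted over the 5 pairs). Cyp7a1 and Cyp8b1 were related at Pearson's r = 0.48 (p = 0.00753, adjusted p = 0.0377) and Spearman's rho = 0.53 (p = 0.00546, adjusted p = 0.0273). Among pairs not tested, Cyp7a1 had a higher r with Cyp27a1 (0.67), Slc10a1 (0.64) and Baat (0.53), diet means removed. By diet, r of Cyp7a1 with Cyp8b1 was 0.52 in INT-, 0.96 in CR-, 0.32 in MF- and 0.61 in C-fed mice. Without the 2 mice farthest from the median of Cyp7a1, r was 0.57 (adjusted p = 0.0213) and rho 0.51 (adjusted p = 0.069). Within replicates 1 to 4 and 5 to 7, r was 0.39 and 0.48 (adjusted p = 0.255 and 0.392), so that the relation did not pass in either set alone. With the means of the sets removed as well, r was 0.49 (adjusted p = 0.0372) and rho 0.48 (adjusted p = 0.0665). The rank relation thus no longer passed in any of these alternatives. Cyp7a1 and Cyp7b1 had r = 0.53 (p = 0.0235, adjusted p = 0.0587) and rho = 0.45 (p = 0.0362, adjusted p = 0.0905), which fell to r = 0.28 without the 2 farthest mice. The relations of Cyp7a1 with Nr0b2 (r = -0.11, rho = -0.21), Nr0b2 with Abcb11 (r = 0.38, rho = 0.32) and Slc10a1 with Abcb11 (r = 0.16, rho = 0.12) did not pass either. Their p were 0.603 and 0.335, 0.0817 and 0.137, and 0.525 and 0.594 for r and rho, with adjusted p from 0.136 to 0.603. Without the 2 mice farthest from the median of the first gene, Cyp7a1 with Nr0b2 had r = -0.44 (permutation p = 0.0387, adjusted p = 0.072) and Nr0b2 with Abcb11 r = 0.48 (permutation p = 0.0432, adjusted p = 0.072).

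**Figure D3:**
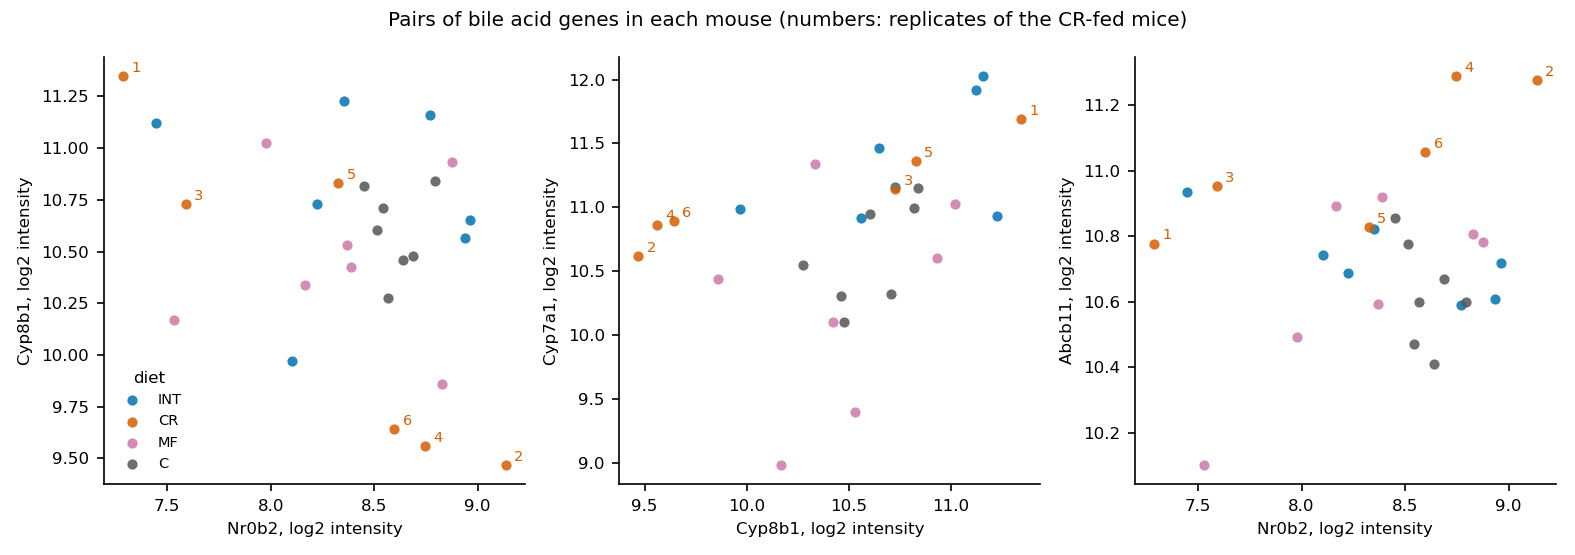
Log2 intensities of Cyp8b1 against Nr0b2 (left), Cyp7a1 against Cyp8b1 (middle) and Abcb11 against Nr0b2 (right) in the 27 mice, coloured by diet, with CR-fed mice numbered by replicate. CR replicate 1 lies at 7.29 for Nr0b2 and 11.35 for Cyp8b1, and CR replicate 2 at 9.14 and 9.47.

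Other genes that make, move or sense bile acids were followed in 4 lists of 59 genes, of which 53 had a value and 51 were tested. Called were 23 between INT and CR (11 higher, 12 lower in INT), 25 between CR and MF (13 higher, 12 lower in CR) and 23 between CR and C (12 higher, 11 lower in CR). These are 45.1%, 49.0% and 45.1% of the tested genes of the lists, against 15.0%, 19.8% and 17.5% of all genes tested. The lists were chosen with earlier results known, and the difference between these shares was not tested. None was called between INT and MF, INT and C or MF and C, by limma or by the one-way test, with 8, 6 and 5 of 51 at an unadjusted limma p under 0.05, against 10.9%, 6.78% and 3.41% of all genes.

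Of 14 tested enzymes of the alternative pathway and the side chain, 9 were called between CR and C, 3 higher and 6 lower in CR, where 17.5% of all genes were called (8.46% higher and 9.05% lower). Cyp39a1, a 7-alpha-hydroxylase of 24-hydroxycholesterol, ranged from 9.12 to 9.88 in INT-, from 10.11 to 10.70 in CR-, from 8.59 to 9.75 in MF- and from 8.87 to 9.50 in C-fed mice. It was thus higher in CR-fed mice than in any other mouse, by a log2 fold change of 1.28 against C (SE 0.16, adjusted p = 1.43e-06). Hsd3b7, which oxidises the 7-alpha-hydroxylated sterols of both pathways, was lower in CR (log2 fold change -0.64, SE 0.10, adjusted p = 2.91e-05). Acnat2, a relative of Baat, was higher by 0.99 (adjusted p = 0.0122), and Cyp46a1, the cholesterol 24-hydroxylase, was lower (-1.05, adjusted p = 0.00338). Between INT and CR, Cyp39a1 differed by -1.09, Hsd3b7 by 0.72, Acnat2 by -0.89 and the peroxisomal thiolase Scp2 by 0.51, each called. The Acnat2 call between INT and CR ended when CR replicate 1 or 4, or else INT replicate 2, 6 or 7, was omitted. Within replicates 5 to 7 and with the one-way test, the Acnat2 calls between CR and C and between INT and CR were both lost. Between CR and MF, Akr1d1, the 5-beta-reductase, was higher in CR by 0.68 (adjusted p = 0.000106).

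Of 15 tested transporters, 8 were called between CR and C, 5 higher and 3 lower in CR, beside the same 17.5% of all genes. The uptake carrier Slco1a1 ranged from 10.97 to 11.33 in INT- and from 4.24 to 7.44 in CR-fed mice, where 1 of 6 mice lay at or under the intensity minimum of 20. MF-fed mice ranged from 7.10 to 11.32 and C-fed mice from 9.64 to 11.09. CR- and MF-fed mice overlapped, while the CR range was separate from those of INT and C. The log2 fold change was -4.95 between CR and C (SE 0.54, adjusted p = 2.2e-07). Its relative Slco1a4 went the other way, at 1.56 (SE 0.21, adjusted p = 3.74e-06). Slc51b, a subunit of the basolateral exporter, was higher by 1.55 (SE 0.20, adjusted p = 2.76e-06), and the drug and bile salt exporter Abcb1a by 1.00 (SE 0.20, adjusted p = 0.000614). The other subunit, Slc51a, did not pass the intensity minimum and was not tested. It lay at or under 20 in all 6 CR-fed mice and in 6 of 7 C-fed mice.

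Of 17 tested regulators, 4 were called between CR and C, a share near the 17.5% of all genes. The coactivator Ppargc1a ranged from 8.01 to 8.33 in INT-, from 9.74 to 10.15 in CR-, from 7.06 to 8.44 in MF- and from 7.89 to 8.61 in C-fed mice, with CR above all others. It was higher in CR than in C by 1.63 (SE 0.17, adjusted p = 9.39e-08). Klb, the coreceptor through which intestinal Fgf15 acts on the liver, was higher by 0.58 (adjusted p = 0.00764) and Nr5a2, an activator of Cyp7a1 and Cyp8b1, by 0.24 (adjusted p = 0.0206). Ppara was lower (-0.35, adjusted p = 0.00239). The call of Klb was lost within replicates 1 to 4, within replicates 5 to 7 and with the one-way test. That of Nr5a2 was lost within replicates 1 to 4, with the one-way test, and without CR replicate 5, CR replicate 6 or C replicate 6. Of 5 tested genes of modification, the bile acid sulfotransferase Sult2a8 was lower in CR than in C (-2.17, SE 0.29, adjusted p = 5.72e-06). Papss2, which makes the sulfate donor, was higher by 0.28 (adjusted p = 0.00216).

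**Figure D4:**
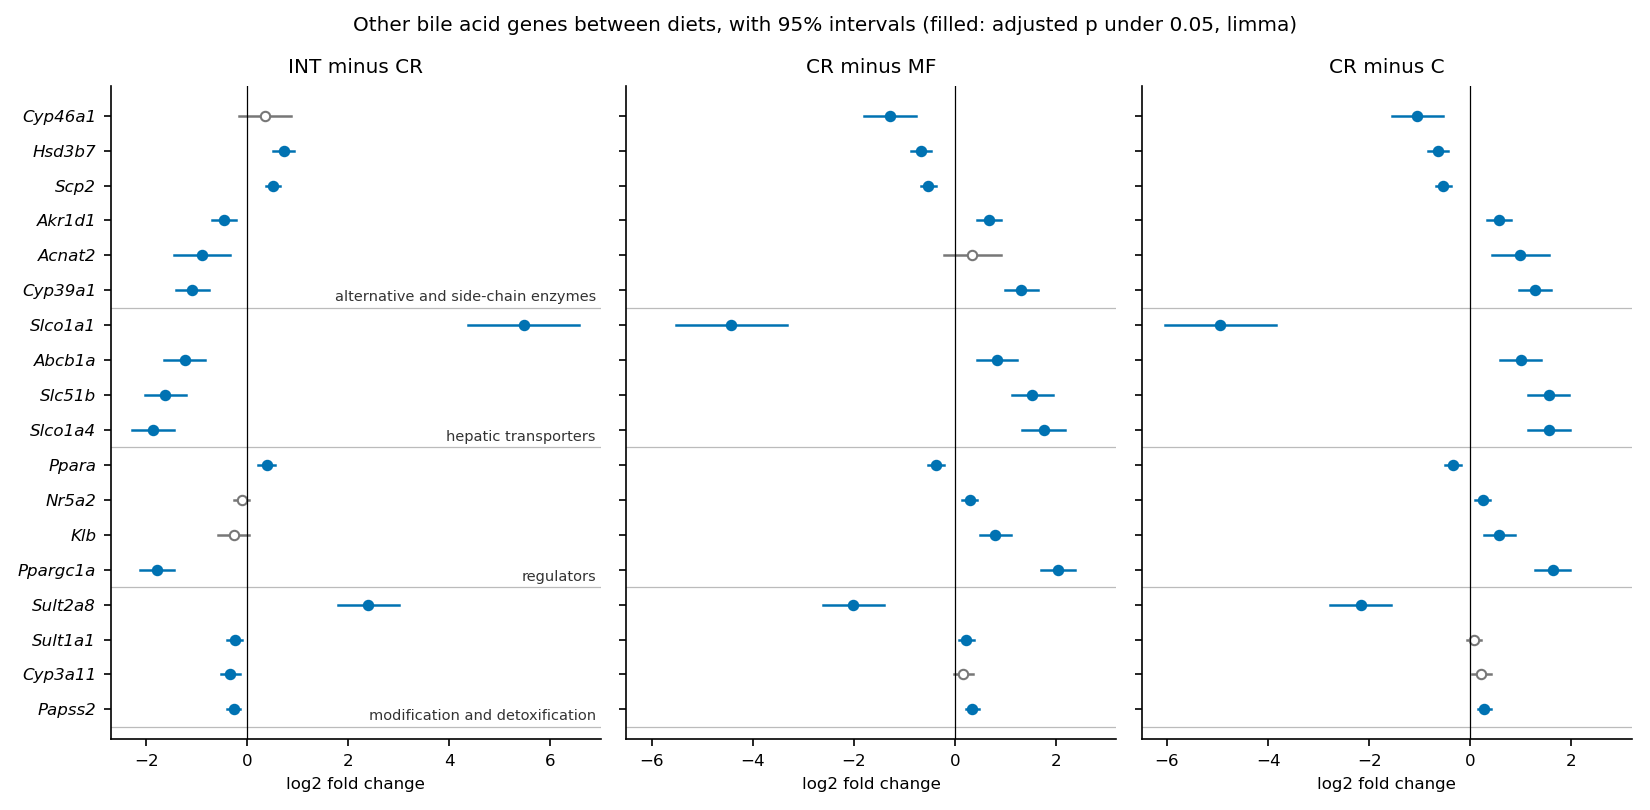
Log2 fold change (horizontal axis) with 95% intervals of 18 further genes of bile acid metabolism, for INT against CR, CR against MF and CR against C, first diet minus second, grouped by list. Filled points have a limma adjusted p under 0.05. Slco1a1 stands at 5.47, -4.43 and -4.95, and Ppargc1a at -1.78, 2.04 and 1.63.

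The genes whose levels ran most like those of Cyp7b1 over the 27 mice were C8b (r = 0.97), Nox4 (0.97), Hsd3b5 (0.96), C6 (0.95) and Keg1 (0.95). C8b and C6 encode complement components. With diet means removed, r over the 27 mice was between 0.85 and 0.96. The genes were selected on the same mice, so that this is no separate evidence of likeness, and r within single diets was not computed. Cyp7a1 ran most like Gch1 (r = 0.85), Upb1 (0.84), Kin (0.83), Ppat (0.80) and Akr1c13 (0.78), with r between 0.70 and 0.83 after removing diet means. These 10 genes are a description over 27 mice and were selected for their r.

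The hepatocyte markers Alb, Apoa1, Ttr, Tat, Cps1 and Hnf4a were above the intensity minimum on all arrays, as the tissue label says. The sums over marker lists were not tested. The hepatocyte range of CR-fed mice was separate from those of the other diets, and the CR ranges of the other lists overlapped with at least 1 other diet. The summed intensity of the 6 hepatocyte markers was 46100 to 53300 in INT-, 54900 to 58200 in CR-, 45500 to 52000 in MF- and 48200 to 54500 in C-fed mice, with Tat and Cps1 called higher in CR than in C. That of the 6 macrophage markers was 1980 to 3120 in INT-, 3090 to 4690 in CR-, 2160 to 3470 in MF- and 2530 to 3900 in C-fed mice. Of these, 4 were lower in INT than in CR, and 2 were higher in CR than in MF and in C. Of 7 cholangiocyte markers with a value (summed intensity 1120 to 1300 in INT-, 1000 to 1140 in CR-, 1080 to 1500 in MF- and 1070 to 1290 in C-fed mice), Krt7 and Sox9 were higher and Slc10a2 lower in CR than in C. Krt7 was lower and Slc10a2 higher in INT than in CR. Of 5 endothelial markers (3630 to 4320 in INT-, 3840 to 4330 in CR-, 3600 to 4640 in MF- and 3730 to 4170 in C-fed mice), Kdr was higher in CR than in C. Between CR and MF, Lyve1 and Kdr were called, 1 higher and 1 lower in CR. Of 5 stellate cell markers (3950 to 5250 in INT-, 4430 to 5350 in CR-, 4270 to 5210 in MF- and 4110 to 5050 in C-fed mice), none was called in any comparison. Of 5 intestinal markers (summed intensity 181 to 375 in INT-, 141 to 252 in CR-, 244 to 564 in MF- and 220 to 408 in C-fed mice), Slc10a2 exceeded the intensity of 20 on all arrays, while Fgf15, Lct, Vil1 and Fabp6 lay at or under it on 4, 7, 22 and 27 of 27 arrays. Of 4 adipocyte markers (71.0 to 80.7 in INT-, 67.6 to 87.2 in CR-, 68.8 to 84.1 in MF- and 67.7 to 84.8 in C-fed mice), Plin1 exceeded it on all arrays, Retn lay at or under it on 11, and Adipoq and Lep on all 27. The part of these shifts in the differences of the bile acid genes in CR-fed mice was not tested.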

How the data were processed

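Liver arrays of 27 mice were compared by diet, with groups and replicate numbers taken from the sample labels. The authors labelled RNA of integrity number above 8.0, hybridised 1 array per mouse and normalized the arrays together by RMA. The deposited values are log2 intensities per probe set, background-corrected, quantile-normalized and summarised. Although the methods mention probe sets assembled per Entrez gene, the table has the manufacturer's 35556 probe sets. The platform annotation gave their genes, with symbols updated from a RefSeq gene table of GRCm38.p6 (18790 of 18820 genes). Probe sets naming several genes (1881) or none (12457) were left out, and the one of highest mean was kept per gene. Array medians were 5.21 to 5.27 and r between arrays 0.982 to 0.992. No 2 arrays were copies. Arrays have no read depth, and their number limits the precision.

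Genes that exceeded an intensity of 20 on 5 or more arrays (13603) were tested with limma 3.58.1 in R 4.3.3 on all 27 arrays with 1 mean per diet. P-values were adjusted by Benjamini-Hochberg over all tested genes and called under 0.05. Relations and descriptions used Python 3.11.15 with scipy 1.17.1, and figures matplotlib 3.10.9. The code was tested on simulated data. The 10 genes, the lists and the array sets were chosen with earlier results of these data known. All 10 genes are named, with per list and comparison at most 4 called genes of largest change, and the 5 genes most like Cyp7a1 and Cyp7b1. Alternatives covered scaling, the intensity minimum, variance settings, array weights, only the diets compared, blocks, array sets, probe set means, each mouse left out, and a one-way test followed by Tukey's post-test. The methods name this one-way test for single measures. Here its p were adjusted over all genes as well, so that it is stricter than the test of the methods.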

Additional observations from a re-analysis of the deposited data

Results flagged for a closer look

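In 2 of 40 groups of mice (10 genes by 4 diets) a single mouse stood apart from the others of its diet, by a gap larger than Dixon's 95% limit for the group size. Chance gives about 1 in 20 such groups. Baat was highest in MF replicate 6, at 9.75 on the log2 scale, where the next MF-fed mouse had 9.42, a gap of 0.746 of the whole range. Slc27a5 was lowest in CR replicate 2, at 11.55, where the next CR-fed mouse had 11.74, a gap of 0.724 of the range. The same CR-fed mouse had the lowest Cyp7b1, Cyp8b1 and Nr1h4 and the highest Nr0b2 of all 27 mice. No difference of Baat between MF and another diet was called with or without the mouse that stood apart.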

How the results depend on the processing

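The count of called bile acid genes between CR and C was 3, against 2 with the one-way test and in replicates 1 to 4, and 0 in replicates 5 to 7. The other settings gave 3. Between CR and MF it was 4, against 2 with only those diets in the fit, 2 with the one-way test and 0 in replicates 5 to 7, while 5 other settings gave 3. Between INT and CR it was 2, against 1 in replicates 5 to 7 and 3, with Abcb11, in the 3 settings named next for that gene. Leaving out 1 mouse gave 2 to 4 genes between INT and CR (4 without CR replicate 1), 2 to 4 between CR and MF (2 without CR replicate 4), 3 between CR and C, 0 to 1 between INT and MF (Cyp7a1 without MF replicate 6), and 0 for INT against C and MF against C. For 13 differences of the bile acid genes, the settings gave 507 values, of which 464 kept their side of the threshold, 33 lost a call, 10 gained one and 0 changed direction. For 43 differences of other named genes they gave 1677 values, of which 45 lost a call and 0 changed direction. Many of these values could not change direction. Each of the 10 bile acid genes had 1 probe set, so that its probe set mean repeated its value. Leaving out a mouse of a diet not compared left the log2 fold change as it was. So did settings that changed only the genes tested, the variance or the test.

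The Cyp7a1 call between CR and MF was lost in 7 of 12 settings other than leaving out a mouse, among them no intensity minimum (adjusted p = 0.0565), median centring (0.0504) and array weights (0.096). Abcb11 passed between INT and CR with cyclic loess (adjusted p = 0.0466), array weights (0.0357) and only those diets (0.0356). The relation of Cyp7a1 and Nr0b2 changed sign in replicates 5 to 7 (r = 0.16), and that of Slc10a1 and Abcb11 without the 2 farthest mice (r = -0.14). By Pearson's r, that of Cyp7a1 and Cyp8b1 no longer passed in replicates 1 to 4 (r = 0.39) or 5 to 7 (r = 0.48). The cause of these changes was not tested, and the part played by the smaller number of mice in some of these fits was not tested either.

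All 10 genes lay above the intensity of 20 on all 27 arrays, so that signal over background limited none of their values. The labels do not say that replicate numbers pair the mice. Deviations of same-numbered mice correlated between -0.25 and 0.30 over all comparisons, and in no comparison did every pair exceed 0.1, so that the numbers were not taken as pairs. Between INT and C, 6 of 7 pairs lay between 0.13 and 0.26 and replicate 7 at -0.01. With the number as a replicate block, 2, 4 and 3 bile acid genes were called for INT against CR, CR against MF and CR against C, as without it, and the Cyp7b1 difference between CR and C was -1.79 (limma adjusted p = 4.57e-05). Over all genes, the one-way test called 1055, 1455 and 1231 in these comparisons, against 2039, 2690 and 2382 by limma. Replicates 1 to 4 alone called 1038 (INT against CR) and 1226 (CR against C), and replicates 5 to 7 alone 347, 331 and 497. Between INT and MF, where limma called 0, array weights gave 3 genes and leaving out C replicate 5, C replicate 7 or MF replicate 6 gave 2, 1 and 29. Between MF and C, replicates 1 to 4 gave 1.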
